A study of Homo sapiens with 13 samples.

Results

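The loci described here are 10 human genes that are in common use as test sites when R-loop assays are set up: ACTB, GAPDH, MYADM, APOE, CALM3, BTBD19, ING3, TFPT, VIM and SNRPN. They were taken as a fixed list of names, chosen with earlier results of these data known. A peak was assigned to a gene when at least 1 bp of it fell in the gene's RefSeq span or in the flanking 2 kb. The 10 genes are among 19974 protein-coding genes on chromosomes 1 to 22 and X. Their windows held 15 of 12687 siREXO4 peaks, 17 of 20954 siRNaseH1 peaks and 5 of 4458 siCtrl peaks. The peaks come from DRIP-seq, in which sonicated genomic DNA is precipitated with S9.6, an antibody against DNA-RNA hybrids, and sequenced. The cells were U2OS, a line from a human osteosarcoma, transfected with an siRNA against REXO4 (siREXO4), against RNaseH1 (siRNaseH1) or with a control siRNA (siCtrl). Each transfection had 3 S9.6 libraries and 1 input library, and siCtrl cells also had 1 IgG library, 13 samples in all. Each of the 3 peak lists was called by the authors on merged S9.6 libraries, so no value below has a replicate error and no test between transfections was possible.

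An R-loop forms when a nascent transcript pairs with its template strand and leaves the other DNA strand single. RNaseH1 degrades the RNA of such hybrids, and REXO4 belongs to a family of exonucleases. R-loops are known to form at promoters with G-rich non-template strands and near the ends of highly transcribed genes, which is why sites in genes such as CALM3, APOE and ACTB are often assayed, while SNRPN is often taken as a low-signal site. In a bulk population, more cells with a hybrid and more hybrid per cell cannot be told apart.

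Depth limits these lists. From the fold and p-value columns, the number of fragments at each summit and the local background were recovered (all peaks named here gave a whole number of fragments within 0.001 in −log10 p). The lowest summit in each list had 7 fragments, and the lowest background of a list was 1.41 fragments in siREXO4, 1.36 in siRNaseH1 and 1.28 in siCtrl. A gene without a peak is therefore a gene without a call at this depth, not one shown to lack hybrids. Peaks do not report transcript levels, so neither the knockdowns nor the cell type were checked. REXO4 held no peak in any list, and RNASEH1 held 1 siREXO4 and 3 siRNaseH1 peaks and no siCtrl peak.

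The upstream sequences of 5 of the genes are given as examples of tabled starts with and without a peak. They are the 250 bases before a start in the RefSeq promoter table (GRCh38.p14, the assembly of hg38), written 5′ to 3′ on the sense strand, with runs of 4 or more G in capitals. The GAPDH sequence (chr12:6535014-6535263) lay under a peak in all 3 lists, the APOE sequence (chr19:44905546-44905795, the first of 3 tabled starts) under peaks of both knockdown lists, and the CALM3 sequence (chr19:46601819-46602068, the first of 2 starts) partly under a siREXO4 peak. The VIM sequence (chr10:17227991-17228240) and the SNRPN sequence (chr15:24862722-24862971, the second of 4 starts) lay under none. All 5 are on the plus strand. The GAPDH, CALM3 and SNRPN sequences lie inside the RefSeq span of their gene, not before its 5′ boundary.
GAPDH: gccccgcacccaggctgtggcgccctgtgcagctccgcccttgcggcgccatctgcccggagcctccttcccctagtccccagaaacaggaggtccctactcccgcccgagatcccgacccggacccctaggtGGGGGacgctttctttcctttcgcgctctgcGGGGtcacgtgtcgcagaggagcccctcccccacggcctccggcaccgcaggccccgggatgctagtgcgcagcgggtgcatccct
APOE: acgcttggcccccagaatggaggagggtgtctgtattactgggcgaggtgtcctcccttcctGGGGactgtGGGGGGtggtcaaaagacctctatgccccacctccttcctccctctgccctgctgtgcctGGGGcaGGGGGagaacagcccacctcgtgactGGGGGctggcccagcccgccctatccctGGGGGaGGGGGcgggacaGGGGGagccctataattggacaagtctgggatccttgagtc
CALM3: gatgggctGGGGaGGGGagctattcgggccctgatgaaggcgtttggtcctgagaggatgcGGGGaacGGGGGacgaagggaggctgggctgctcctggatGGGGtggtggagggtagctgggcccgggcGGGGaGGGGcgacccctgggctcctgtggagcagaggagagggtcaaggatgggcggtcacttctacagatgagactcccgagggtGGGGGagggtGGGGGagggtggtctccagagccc
VIM: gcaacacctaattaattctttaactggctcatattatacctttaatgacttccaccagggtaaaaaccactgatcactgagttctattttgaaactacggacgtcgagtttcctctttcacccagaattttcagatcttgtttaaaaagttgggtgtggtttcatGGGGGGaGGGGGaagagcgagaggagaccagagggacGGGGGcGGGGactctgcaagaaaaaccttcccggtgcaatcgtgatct
SNRPN: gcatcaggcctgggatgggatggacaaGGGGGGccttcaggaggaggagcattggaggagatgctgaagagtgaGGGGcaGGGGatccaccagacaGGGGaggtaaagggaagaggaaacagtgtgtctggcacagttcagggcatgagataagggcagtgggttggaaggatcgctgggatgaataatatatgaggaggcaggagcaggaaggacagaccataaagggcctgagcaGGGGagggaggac

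The first question was which of these usual sites carried hybrid signal in which transfection. A peak was present at 7 of 10 genes in siREXO4, at 7 in siRNaseH1 and at 3 in siCtrl. By the same rule, a peak was present at 33.7% of all protein-coding genes in siREXO4, at 39.2% in siRNaseH1 and at 12.0% in siCtrl. The 7 genes were the same in both knockdown lists. ACTB, GAPDH and MYADM had a peak in all 3 lists, a pattern shared by 8.59% of protein-coding genes. APOE, CALM3, BTBD19 and ING3 had a peak in both knockdown lists and none in siCtrl, as did 19.0% of protein-coding genes. Counted list by list, a peak without a siCtrl peak in the window was found at 4 genes in siREXO4 and the same 4 in siRNaseH1, against 24.4% and 29.2% of protein-coding genes. TFPT, VIM and SNRPN had no peak in any list, as did 53.3%. Among genes with a span of 50 kb or less, which 9 of these loci are, the shares with a peak were 29.8% in siREXO4, 34.7% in siRNaseH1 and 8.67% in siCtrl.

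**Figure D1:**
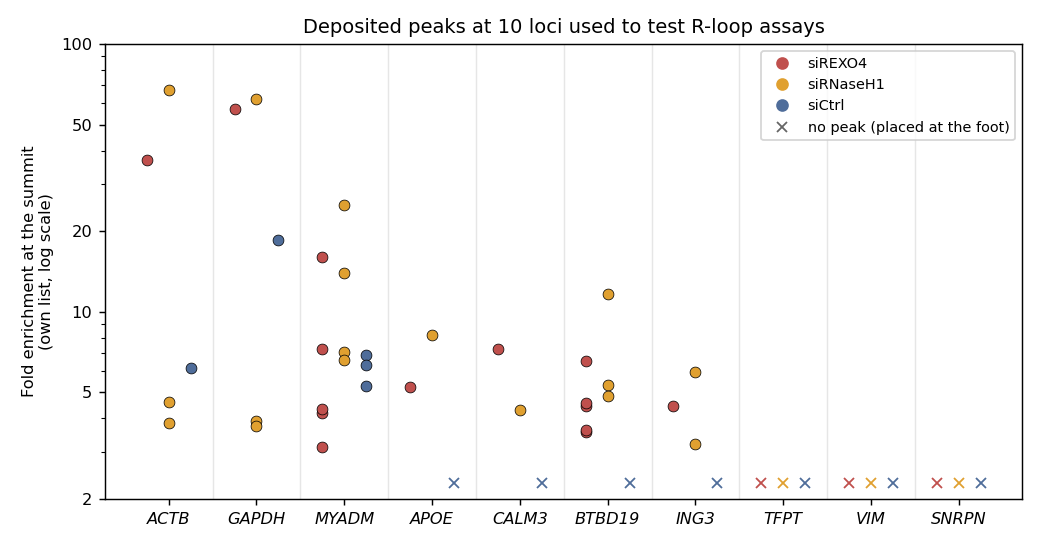
Fold enrichment of every deposited peak at the 10 loci (log axis), by list, with crosses at the foot where a list had no peak. ACTB and GAPDH stand highest, at 36.8 to 67.3 in the knockdown lists, and TFPT, VIM and SNRPN have crosses only.

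Fold enrichment here is the authors' own number for each peak, its summit over the local background in the same list. Values of different lists are given side by side and ranked only within a list. In siREXO4 the 15 peaks ranged from 3.14 to 57.1 with a median of 4.57, against a median of 4.98 for the whole list. In siRNaseH1 the 17 peaks ranged from 3.20 to 67.3 with a median of 5.94, against 5.11 for the list. In siCtrl the 5 peaks ranged from 5.30 to 18.5 with a median of 6.33, against 4.83. The highest values thus belonged to few of the genes, and 7 of 15 siREXO4 peaks, 10 of 17 siRNaseH1 peaks and 5 of 5 siCtrl peaks lay above the median of their list.

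ACTB encodes β-actin, a main component of the cytoskeleton (chromosome 7, 5527148 to 5530601). Its siREXO4 peak spanned 5529219 to 5530852 with a fold of 36.8, rank 75 of that list. The siRNaseH1 peak at the same place spanned 5529015 to 5530887 with a fold of 67.3, rank 35. The siCtrl peak spanned 5529594 to 5530603 with a fold of 6.17, rank 576. ACTB is transcribed from the minus strand, so all these peaks lie at its 5′ end, and the siCtrl interval of 1010 bp was contained whole in both knockdown peaks. The summits of the 3 lists lay within 125 bp of each other. The peaks rested on 118 fragments over a local background of 2.23 in siREXO4, 251 over 2.75 in siRNaseH1 and 36 over 5.00 in siCtrl, so the siCtrl fold was set against a higher local background than the others.

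The 3′ side of ACTB was covered in siRNaseH1 only. There, 1 peak from 5526006 to 5527046, with a fold of 3.84 and 21 fragments, lay 102 bp beyond the end of the gene. A further peak from 5524750 to 5525398, with a fold of 4.59 and 16 fragments, lay 1750 bp beyond it and inside the lncRNA gene LOC221946. No siREXO4 or siCtrl peak overlapped either. Both were far weaker within their list than the 5′ peak, with 13.7% and 32.7% of siRNaseH1 peaks at a lower fold.

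GAPDH encodes a glycolytic enzyme (chromosome 12, 6534517 to 6538371, plus strand). Its main peak spanned 6532282 to 6535549 in siREXO4 (fold 57.1, rank 29), 6533521 to 6535741 in siRNaseH1 (62.5, rank 44) and 6534252 to 6535293 in siCtrl (18.5, rank 34). The summits lay within 30 bp of each other, the closest of the loci with a peak in several lists. Summit coverage was 176 fragments in siREXO4, 297 in siRNaseH1 and 59 in siCtrl, over local backgrounds of at most 3.77 fragments. The siCtrl peak made up 31.9% of the siREXO4 peak's width and 46.9% of the siRNaseH1 peak's. In all 3 lists the peak also covered part of GAPDH-DT, a divergent lncRNA gene, and fragments of the 2 genes cannot be told apart.

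As on the 3′ side of ACTB, where the peaks lay beyond the gene, a peak at the 3′ end of GAPDH was found in siRNaseH1 only. It spanned 6538096 to 6538502, with 276 of its 407 bp inside the gene, a fold of 3.75 and 15 fragments. These 3′ peaks are calls in 1 list, and whether their coverage differed from that in the other lists was not tested. Calls in siRNaseH1 alone are common, since 32.7% of all siRNaseH1 peaks overlapped a siREXO4 peak and 90.3% overlapped no siCtrl peak. Another siRNaseH1 peak, from 6532590 to 6532878 with a fold of 3.92, lay in the upstream flank and was contained in the wide siREXO4 peak. Many processed pseudogenes resemble ACTB and GAPDH, and how reads that map to several places were treated is not given in the sources used here. Of 14 annotated ACTB pseudogenes and 63 GAPDH pseudogenes, counted without a flank, none overlapped a peak of any list. This cannot show where such reads were placed, because the copies would also lack peaks if the reads were dropped.

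**Figure D2:**
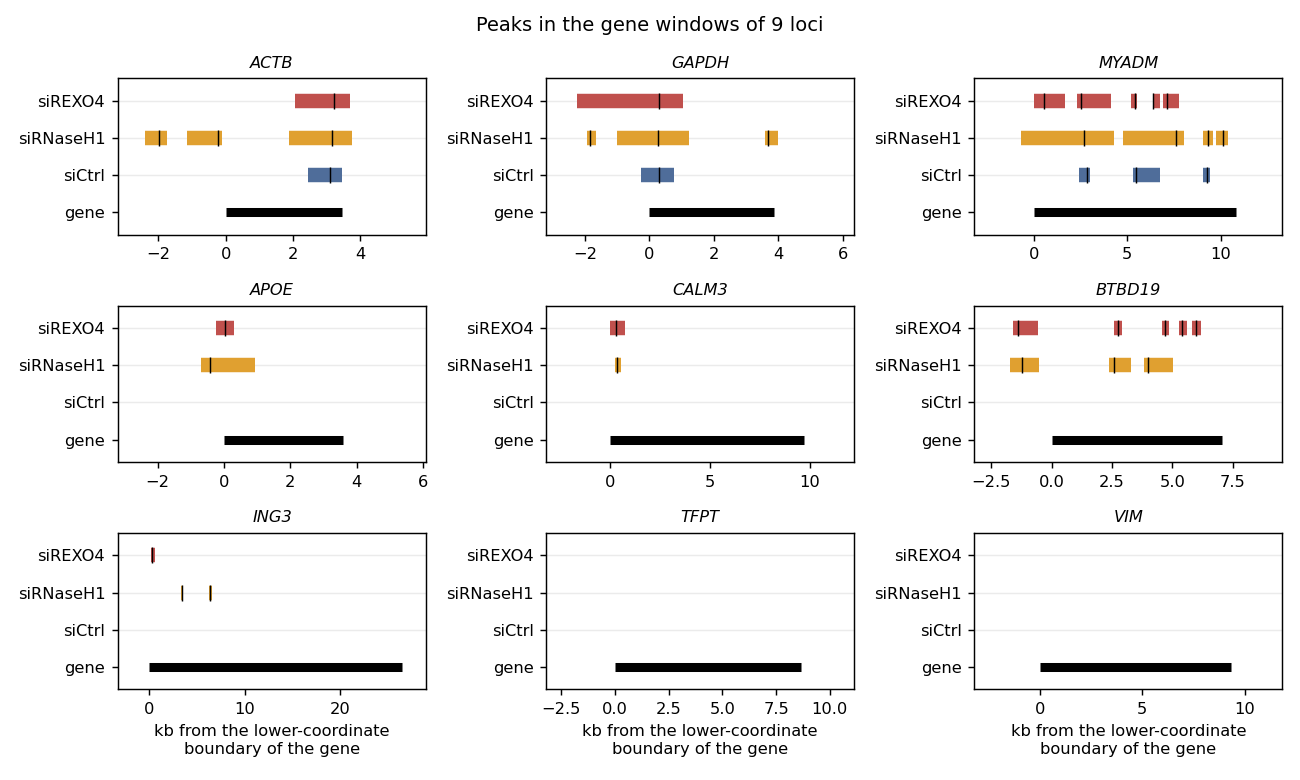
Position of every peak (coloured bars, black ticks at summits) in the windows of 9 loci, in kb from the lower-coordinate boundary of the gene (black bar). ACTB runs from right to left, and its peaks on the left, like the right-hand peak at GAPDH, are in siRNaseH1 only; SNRPN, at 155 kb and without peaks, is not drawn.

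MYADM encodes a membrane protein first described in myeloid differentiation (chromosome 19, 53865628 to 53876435). It held the most peaks, with 5 in siREXO4, 4 in siRNaseH1 and 3 in siCtrl. At least as many were held by 1.22% of protein-coding genes in siREXO4, 8.27% in siRNaseH1 and 0.746% in siCtrl. The siREXO4 peaks had folds of 16.0, 7.25, 4.19, 3.14 and 4.32 in order along the gene. The siRNaseH1 peaks had folds of 25.1, 13.9, 7.05 and 6.58. The siCtrl peaks had folds of 5.30, 6.89 and 6.33. Peaks of the knockdown lists thus stood highest near the start of the gene, while the siCtrl values were close to each other and none lay at the first start.

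The intervals at MYADM were nested only in part. The first siRNaseH1 peak ran from 53864918 to 53869915, 4998 bp, and the second from 53870396 to 53873637, 3242 bp. Together they contained all 5 siREXO4 peaks and 2 of the siCtrl peaks. The first siREXO4 peak, from 53865603 to 53867298 over the first tabled start of MYADM, overlapped no siCtrl peak. The siCtrl peak from 53874692 to 53875060 was covered whole by a siRNaseH1 peak but by no siREXO4 peak, the exception among the siCtrl peaks of these loci. Peaks covered 34.6% of the MYADM window in siREXO4, 63.3% in siRNaseH1 and 16.4% in siCtrl. At least that share was reached by 0.215%, 0.0751% and 0.0801% of protein-coding genes. Part of the signal near the start overlaps the antisense lncRNA gene MYADM-AS1, and the lists carry no strand.

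**Figure D3:**
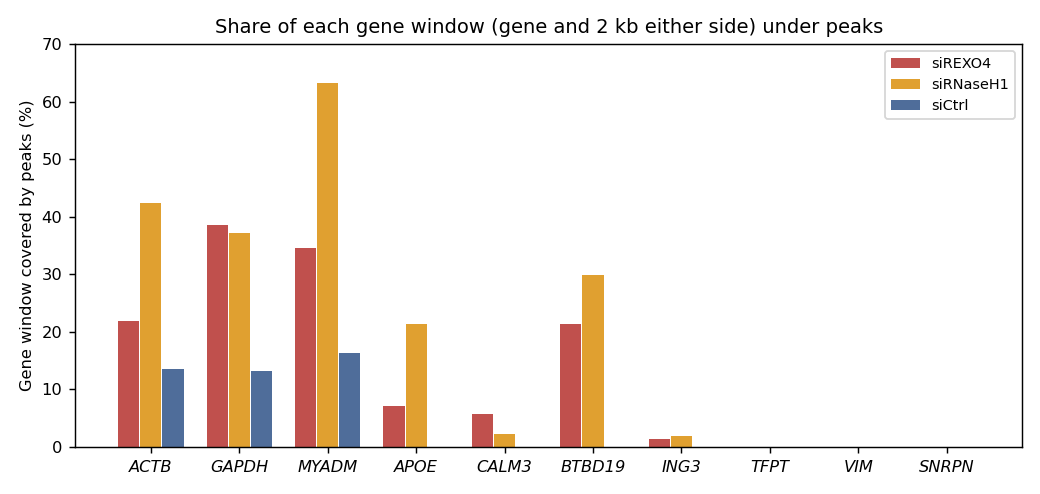
Share of each gene window (gene and 2 kb either side) under peaks, in percent, by list. MYADM reaches 63.3% in siRNaseH1, BTBD19 reaches 29.9% with no siCtrl peak, and 3 loci are at 0.

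The remaining genes with a peak had it in the knockdown lists alone. APOE encodes apolipoprotein E, a lipid carrier (chromosome 19, 44905796 to 44909393). Its siREXO4 peak spanned 44905563 to 44906100, with a fold of 5.25 and 17 fragments. The siRNaseH1 peak spanned 44905112 to 44906739, with a fold of 8.17 and 28 fragments. Relative to the first tabled start, the siREXO4 summit lay at 19 bp and the siRNaseH1 summit at −433 bp, although the siREXO4 peak was contained in the siRNaseH1 peak. The siREXO4 fold was above 58.3% of its list and the siRNaseH1 fold above 86.0%. The nearest siCtrl peak was 88.8 kb away.

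CALM3 encodes calmodulin, the calcium sensor (chromosome 19, 46601074 to 46610782). Here the siREXO4 peak was the wider, from 46601055 to 46601843 with a fold of 7.26 and 20 fragments. The siRNaseH1 peak, from 46601314 to 46601610 with a fold of 4.31 and 14 fragments, lay inside it. The summits were 49 bp apart, 300 bp (siREXO4) and 349 bp (siRNaseH1) inside the gene's 5′ boundary, which the siREXO4 peak crossed. From the first start in the promoter table, which lies inside the gene, they were at −695 bp in siREXO4 and −646 bp in siRNaseH1. The siREXO4 fold was above 83.0% of its list, against 26.4% for siRNaseH1.

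BTBD19, which encodes a BTB domain protein (chromosome 1, 44808523 to 44815585), held 5 siREXO4 and 3 siRNaseH1 peaks. The strongest in each list lay upstream of the gene, from 44806946 to 44807957 in siREXO4 (fold 6.54, 25 fragments) and from 44806801 to 44808011 in siRNaseH1 (11.6, 42 fragments). These peaks also overlap DYNLT4, so they cannot be given to BTBD19 alone. Inside the gene the folds were 3.56 to 4.57 in siREXO4, with 9 to 13 fragments, and 4.84 and 5.31 in siRNaseH1, with 14 and 17. The siREXO4 peaks nearest the gene's end, at 44813787 and 44814346, overlapped no siRNaseH1 peak. A siCtrl peak with a fold of 4.24 lay 3320 bp beyond the gene, outside the window.

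ING3 encodes a subunit of the NuA4 (TIP60) histone acetyltransferase complex (chromosome 7, 120950777 to 120977216). Its siREXO4 peak spanned 120951004 to 120951401, near the lower boundary of the gene, with a fold of 4.43 and 12 fragments. Its siRNaseH1 peaks spanned 120954123 to 120954412 (fold 3.20) and 120957048 to 120957342 (5.94), with 13 fragments each. None of the 3 intervals overlapped another, so ING3 had a peak in both knockdown lists without a shared site. The nearest siCtrl peak was 419 kb away.

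Coverage at the deepest summit, divided by the lowest background of the list, puts these calls on a scale of depth. At GAPDH it was 125 in siREXO4 (95% Poisson interval 107 to 145), 219 in siRNaseH1 (195 to 245) and 46.2 in siCtrl (35.2 to 59.6). At ACTB it was 83.7 (69.3 to 100.3), 185 (163 to 209) and 28.2 (19.8 to 39.1) in the same lists. At MYADM it was 36.9 (27.6 to 48.4), 80.3 (66.0 to 96.9) and 14.9 (8.96 to 23.2). At GAPDH and ACTB the counting intervals of the 3 lists did not overlap. How often this holds at other loci with a peak in all 3 lists is not given here, and deep summits have relatively narrow intervals. At MYADM the deepest siREXO4 summit lay in the peak that overlapped no siCtrl peak. The deepest siREXO4 summit of MYADM in a peak that did overlap one had 25.5 (17.9 to 35.4), an interval that overlaps that of siCtrl. These intervals cover counting error only, not the spread between cultures, and the background depends on the read number and fragment length of each merged library.

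At the genes without a siCtrl peak the scaled depth lay closer to the limit of the siCtrl list. That limit is the lowest siCtrl summit of the whole list, 7 fragments, against a median of 13. Where the local background is higher the limit can be higher, so the multiples below can overstate the margin. Scaled to the siCtrl background, the deepest siREXO4 summit was 3.23 times the lowest siCtrl summit called at BTBD19, 2.59 times at CALM3 and 1.55 times at ING3, with APOE between these. For siRNaseH1 it was 5.64 times at BTBD19, 3.76 times at APOE, 1.88 times at CALM3 and 1.75 times at ING3. The BTBD19 values are those of the flank peak over DYNLT4, and inside BTBD19 the deepest summits reached 1.68 times in siREXO4 and 2.28 times in siRNaseH1. Over all loci here, 5 of 10 siREXO4 peaks and 8 of 12 siRNaseH1 peaks without an overlapping siCtrl peak reached 2 times that limit, against 37.9% and 58.0% of all such peaks in the lists. The lower interval bound lay below the limit at ING3 in both knockdown lists and at every siREXO4 peak inside BTBD19. A siCtrl signal of that size cannot be told at this depth from one under the limit.

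**Figure D4:**
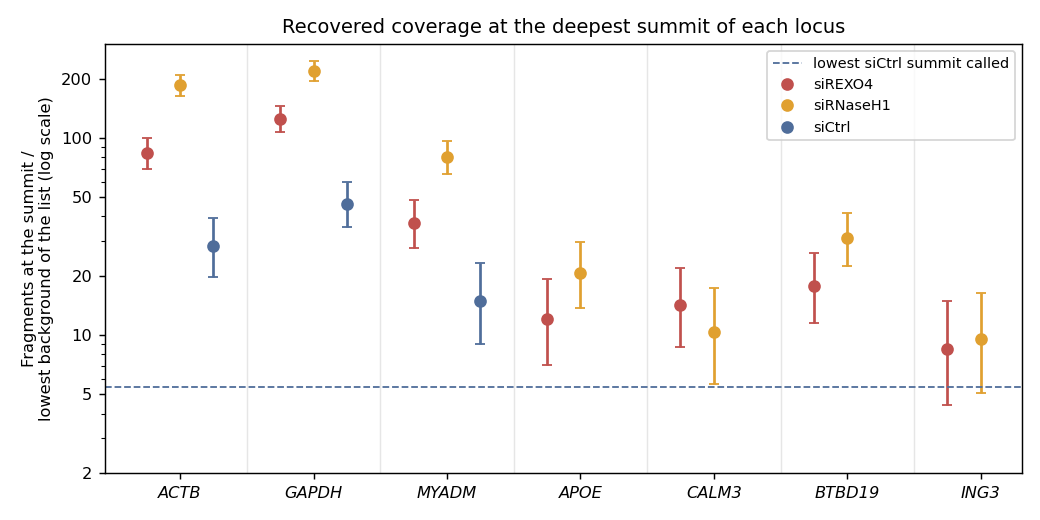
Fragments at the deepest summit of each locus divided by the lowest background of its list (log axis), with 95% Poisson counting intervals; the dashed line is the lowest siCtrl summit called. GAPDH and ACTB have intervals that do not overlap between lists, the MYADM summits lie at different sites, and the intervals of ING3 cross the line.

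Peak by peak, 10 of 15 siREXO4 peaks and 12 of 17 siRNaseH1 peaks at these loci overlapped no siCtrl peak, against 85.5% and 90.3% of the whole lists. Of the 15 siREXO4 peaks, 12 overlapped a siRNaseH1 peak, against 54.2% of the siREXO4 list. Of the 17 siRNaseH1 peaks, 10 overlapped a siREXO4 peak, against 32.7% of the siRNaseH1 list. Of the 5 siCtrl peaks, 4 were overlapped in siREXO4 and 5 in siRNaseH1, against 41.7% and 46.3% of the siCtrl list. Peaks of 1 gene share their surroundings, so these counts come from 7 loci.

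TFPT, VIM and SNRPN held no peak. TFPT encodes a subunit of the INO80 chromatin remodelling complex (chromosome 19, 54107020 to 54115657). The nearest siREXO4 peak, with a fold of 3.82 and 14 fragments, lay 3970 bp from the gene, over NDUFA3. The nearest siRNaseH1 peak was 94.9 kb away, and the nearest siCtrl peak, 232 kb away, was one of those at MYADM. VIM encodes vimentin, the intermediate filament protein of mesenchymal cells (chromosome 10, 17228241 to 17237593). Its nearest peaks were 36.2 kb away in siREXO4, 62.5 kb in siRNaseH1 and 485 kb in siCtrl. SNRPN encodes a small nuclear ribonucleoprotein and lies in an imprinted region (chromosome 15, 24823637 to 24978723). Its 155 kb were free of peaks, and the nearest were 337 kb away in siREXO4, 334 kb in siRNaseH1 and 1914 kb in siCtrl. Among protein-coding genes of 100 to 200 kb, 38.0% had no peak in any list.

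Sequence composition at the starts was compared next. The RefSeq promoter table, with windows of 250 bases before to 50 after a start, held 17 windows for 8 of the 10 genes, with none for ACTB and ING3. A siREXO4 peak overlapped 7 of the 17 windows (at 4 genes), a siRNaseH1 peak 7 (at 3 genes) and a siCtrl peak 1, against 14.9%, 15.3% and 1.65% of all 22132 windows of protein-coding genes. Windows of 1 gene can lie under the same peak, so the 17 are not independent. The GAPDH window was under a peak in all 3 lists. At CALM3, whose tabled starts lie inside the gene's span, 25 bases of the first window were under the siREXO4 peak and none under the siRNaseH1 peak. The BTBD19 window was under no peak, although peaks lay on either side of it.

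GC skew, (G − C)/(G + C) on the sense strand, is positive where the non-template strand is G-rich. Its median over all windows was 0.02. The first CALM3 window had 0.48, above 99.7% of all windows, and the 3 APOE windows had 0.07, 0.27 and 0.48. GAPDH had −0.13 and the 3 MYADM windows −0.21, −0.22 and −0.03. GAPDH and MYADM, which had peaks in all 3 lists, thus had more C than G on the sense strand in these windows. The GAPDH window lay whole under the siREXO4 and siRNaseH1 peaks and, for 280 bases, under the siCtrl peak. It held no GAPDH summit of any list. No siCtrl peak overlapped a MYADM window. The first MYADM window lay whole under a peak of each knockdown list and held the summit of that siREXO4 peak. These values thus do not describe the sequence at the GAPDH summits or at the siCtrl peaks of MYADM. SNRPN, without any peak, reached 0.46 at its second start and had −0.15, 0.08 and 0.11 at the others. TFPT reached 0.32 at its second start and had −0.26 at its first. VIM had 0.10 and BTBD19 −0.04. High skew thus occurred both at genes with and without a peak.

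The motif GGGG was searched on both strands, as GGGG and as CCCC on the sense strand. Of all windows, 81.1% held GGGG and 78.8% held CCCC. The first CALM3 window held GGGG 9 times and CCCC 1 time, the first APOE window 8 and 4 times, and GAPDH 2 and 7 times. VIM held GGGG 4 times and the second SNRPN window 5 times, with no CCCC in either. The GGGG runs are those in capitals in the sequences above, apart from any in the last 50 bases of a window, and the CCCC runs are in lower case there. Each window lies mostly upstream of its tabled start, so the sequence after that start is hardly sampled. The GAPDH, CALM3, MYADM and SNRPN windows, the third APOE window and the second TFPT window lie inside the RefSeq span of their gene. Their values therefore do not describe sequence upstream of the gene's 5′ boundary.

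**Figure D5:**
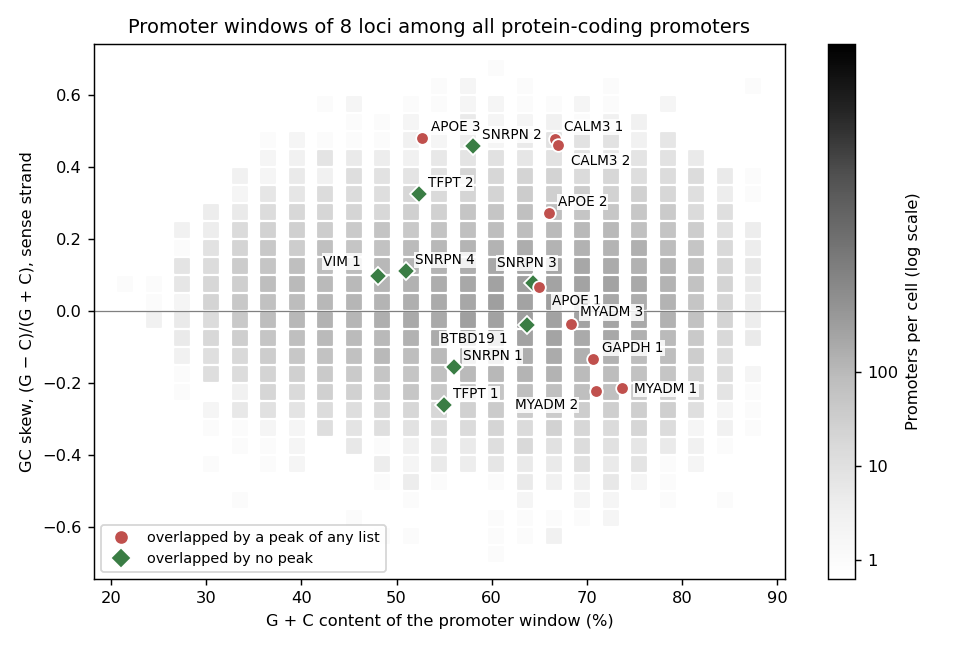
G + C content (percent) and GC skew of the 17 promoter windows of 8 loci, numbered by tabled start, over the number of protein-coding promoters per cell (grey). CALM3 and APOE windows lie at positive skew and GAPDH and MYADM windows at negative skew, and windows without a peak (diamonds) span −0.26 to 0.46.

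A further 6 genes that are also used as R-loop test sites were counted beside these. Of RPL13A, EGR1, FMR1, NEAT1, MALAT1 and AIRN, 5 held a siREXO4 peak, 5 a siRNaseH1 peak and 4 a siCtrl peak. The shares of protein-coding genes with a peak were 33.7%, 39.2% and 12.0%, but NEAT1, MALAT1 and AIRN are noncoding and not among those genes. The siCtrl peak of RPL13A, with a fold of 4.04, lay only in its flank, 1152 bp from the gene. The highest fold at the lncRNA gene NEAT1 was 84.6 in siREXO4, 221 in siRNaseH1 and 31.2 in siCtrl, each above all values of the same list at the 10 loci. EGR1, an immediate early transcription factor gene, had 11.6 in siREXO4, 23.4 in siRNaseH1 and 5.44 in siCtrl. FMR1 had 4.15 in siREXO4, 4.63 in siRNaseH1 and no siCtrl peak. AIRN had no peak in any list.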

How the data were processed

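The authors deposited 1 peak list per transfection, called on its 3 merged S9.6 IP libraries, per the labels and file names, in the 10-column narrowPeak layout without a header. Per the submitters' processing notes, the tools include HISAT2 2.2.1, SAMtools 1.17 and MACS2 2.1.0.20150731, and the build is hg38. For options, control library and duplicate handling the sources used here give nothing. The deposited fold enrichment is a ratio of the summit to its local background. Each summit also has a deposited −log10 p and a deposited −log10 q, and the deposited score derived from q was not used.

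Peaks on chromosomes 1 to 22 and X were kept (12687 siREXO4, 20954 siRNaseH1 and 4458 siCtrl). Gene spans came from a RefSeq table of GRCh38.p14, in which all 10 genes were found, and promoter windows from its RefSeq promoter table. A peak counted for a gene when at least 1 bp lay in the span or 2 kb either side. Fragments (k) and background (b) were solved from fold = (k + 1)/(b + 1) and the upper Poisson tail of k, a relation that MACS2 output is known to follow. Intervals are exact Poisson at 95%. All 10 genes are named, with genes that share their peaks, the knockdown targets and 6 further test loci. Another test locus of the rule is not reported here. The genes and lists were chosen with earlier results of these data known. Alternatives changed the flank, q, fold, list length and overlap. Input, IgG and per-replicate signals were not analysed here. The code was tested on simulated data and ran on Python 3.11.15 with SciPy 1.17.1, NumPy 2.4.6, Matplotlib 3.10.9 and pandas 2.3.3.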

Additional observations from a re-analysis of the deposited data

How the results depend on the processing

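The counts of genes with a peak stayed within 1.5 times under each alternative tried. A flank of 5 kb added TFPT in siREXO4 and BTBD19 in siCtrl, and a fold of at least 5 lost ING3 in siREXO4 and CALM3 in siRNaseH1. With all lists limited to the length of the siCtrl list by p-value, 2 genes had a siREXO4 peak and no siCtrl peak (CALM3 and BTBD19), and 2 had a siRNaseH1 peak and no siCtrl peak (APOE and BTBD19), against 4 each. The shares of protein-coding genes with a peak were then 18.6% in siREXO4 and 16.9% in siRNaseH1, against 33.7% and 39.2%. Peaks without an overlapping siCtrl peak then numbered 3 in siREXO4 and 2 in siRNaseH1, against 10 and 12. Without peaks that overlap another gene's span, an alternative chosen after seeing the data, GAPDH was lost in siREXO4 and siCtrl and its siRNaseH1 peak was the one at the 3′ end. The highest fold of a gene was the same in 103 of 111 values computed under alternatives, which leave out genes that lost every peak. The other 8 moved. Without peaks that overlap another gene's span, MYADM had 4.32 in siREXO4 (against 16.0) and 13.9 in siRNaseH1 (against 25.1), and GAPDH had 3.75 in siRNaseH1 (against 62.5). BTBD19 had 4.57 in siREXO4 (against 6.54) and 5.31 in siRNaseH1 (against 11.6), both there and with no flank, and 11.8 in siRNaseH1 with a flank of 5 kb.

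No paired analysis was possible because the deposited lists merge the replicates of each transfection, and no replicate was left out for the same reason. Depth limits the calls: no summit under 7 fragments was called in any list.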

Other observations

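Over all protein-coding promoter windows, the 4100 that a peak of any list overlapped had a median G + C content of 68.3% and a median GC skew of 0.03. The 18032 that no peak overlapped had 60.7% and 0.02. Of the 17 windows here, those under a peak ranged in G + C from 52.7% (the third APOE start) to 73.7% (the first MYADM start). Those under no peak ranged from 48.0% (VIM) to 64.3% (the third SNRPN start), so the ranges overlapped. The ratio of observed to expected CpG had a median of 0.89 in windows with a peak and 0.67 in those without, against 0.76 at GAPDH and 0.39 at the first CALM3 window. The first TFPT window, without a peak, had 0.95, above 81.8% of all windows. These values are descriptions of annotated starts, and no relation to the peaks was tested.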
